A study of Homo sapiens with 6 samples.

Results

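A set of 40 genes of the cell's antioxidant and glutathione systems were followed in HUDEP-2 cells after knockdown of MEN1, the gene for menin. They were chosen by symbol, and all 40 are among the 62754 genes of the deposited tables. They comprise the peroxiredoxins, catalase, the superoxide dismutases, the glutathione peroxidases, the thioredoxin system, the enzymes that make and recycle glutathione, the glutathione transferases, and the quinone and biliverdin reductases. The list is defined by gene function and not by a threshold on these values, although earlier results of the data were known when it was drawn up.

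HUDEP-2 is an immortalised human erythroid progenitor line. One group of 3 libraries came from cells given a lentiviral MEN1 hairpin, named MEN1sh2 in the titles, and is labelled as a MEN1 knockdown. The other group of 3 came from cells given a non-targeting control hairpin (Controlsh) and is labelled as wild type. Both groups grew in serum-free medium with erythropoietin (3 units/ml), stem cell factor (50 ng/ml), dexamethasone (1e-06 M) and doxycycline (1 µg/ml), were selected in puromycin (2 µg/ml) for 48 h starting 24 h after infection, and were profiled by poly(A) RNA sequencing 72 h after transduction. Only 1 MEN1 hairpin was used, so an effect of menin loss and an effect of that hairpin on other transcripts cannot be told apart. The line is a single immortalised one, and the titles call the replicates biological without saying how the cultures were separated.

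Hydrogen peroxide and lipid peroxides are removed by catalase, by peroxiredoxins, which are recharged by thioredoxin, and by glutathione peroxidases, which draw on glutathione. Glutathione is built by glutamate-cysteine ligase and glutathione synthetase and is kept reduced by glutathione reductase, while glutathione transferases couple it to reactive compounds. Erythroid cells carry large amounts of iron, heme and oxygen, and mature red cells are rich in peroxiredoxin 2, catalase and glutathione peroxidase 1. The transcription factor NRF2 (gene NFE2L2), which acts with small MAF proteins and is opposed by BACH1, drives many of these genes through the antioxidant response element, whose core reads TGACNNNGC.

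MEN1 itself was at 6.29, 6.44 and 6.88 TPM after MEN1 knockdown and at 41.2, 39.6 and 37.1 TPM in the controls, so that its mean was 16.6% of the control mean. TPM is a transcript level scaled for gene length and for the total of the library, so levels can be compared between genes. Depth, inferred from the deposited values, was 5.57 to 10.8 gigabases of aligned sequence per library. Over the 14294 genes tested, libraries of the same group correlated at 0.985 to 0.989 and libraries of different groups at 0.934 to 0.954 (Pearson, across genes, so a description only). Among the knockdown libraries replicate 1 stood nearest the controls, at 0.953 to 0.954, with replicates 2 and 3 at 0.934 to 0.937. All 12 erythroid markers were present. The 4 marker lists of other blood cells were low (PF4 and PPBP, S100A8, MS4A1 and CLC at 0 in every library), apart from ITGA2B and the mast cell tryptases TPSAB1 and TPSB2, which fell.

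The starts of 6 genes, chosen for their changes, are shown first, and whether these sequences bear on the changes was not tested. GSTM4, GSTM2 and GSTM3 lie in 1 gene cluster and fell together, and GCLM, GSTP1 and NQO1 rose most strongly outside the microsomal transferases. The sequences are from RefSeq on build GRCh38.p14, cover 250 bases before to 50 bases after the annotated start, and are written 5′ to 3′ in the direction of transcription. In GSTM4 and GSTM2 capitals mark the longest run that both share, of 9 bases. The longest runs that GSTM3 shares, 10 bases with GSTM2 and 9 with GSTM4, are not marked. In GSTM3 capitals mark the GATA motif AGATAA, and in GCLM and GSTP1 the element core TGACNNNGC or its reverse complement.
GSTM4 (chr1:109655849-109656148, plus strand): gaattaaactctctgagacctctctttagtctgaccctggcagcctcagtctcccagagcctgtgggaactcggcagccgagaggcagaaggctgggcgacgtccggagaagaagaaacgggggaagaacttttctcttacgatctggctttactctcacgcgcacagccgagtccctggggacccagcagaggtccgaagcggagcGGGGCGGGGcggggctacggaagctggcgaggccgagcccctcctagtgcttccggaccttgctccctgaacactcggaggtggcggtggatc
GSTM2 (chr1:109667807-109668106, plus strand): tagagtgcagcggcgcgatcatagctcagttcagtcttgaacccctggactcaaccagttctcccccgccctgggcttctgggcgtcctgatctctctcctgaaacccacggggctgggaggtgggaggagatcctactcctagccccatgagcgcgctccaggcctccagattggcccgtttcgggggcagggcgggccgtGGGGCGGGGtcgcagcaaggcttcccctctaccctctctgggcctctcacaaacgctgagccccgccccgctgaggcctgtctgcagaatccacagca
GSTM3 (chr1:109740989-109741288, minus strand): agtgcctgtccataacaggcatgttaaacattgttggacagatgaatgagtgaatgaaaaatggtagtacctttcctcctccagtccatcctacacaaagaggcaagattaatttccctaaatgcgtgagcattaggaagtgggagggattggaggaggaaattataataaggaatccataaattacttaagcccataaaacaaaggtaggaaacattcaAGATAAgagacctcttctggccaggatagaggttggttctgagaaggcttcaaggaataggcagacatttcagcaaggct
GCLM (chr1:93909381-93909680, minus strand): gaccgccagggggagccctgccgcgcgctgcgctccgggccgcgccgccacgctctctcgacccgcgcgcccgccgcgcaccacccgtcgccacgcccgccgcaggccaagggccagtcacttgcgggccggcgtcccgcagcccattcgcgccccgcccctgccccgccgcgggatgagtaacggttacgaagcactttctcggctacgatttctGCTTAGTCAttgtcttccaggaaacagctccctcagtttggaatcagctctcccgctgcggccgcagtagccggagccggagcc
GSTP1 (chr11:67583562-67583861, plus strand): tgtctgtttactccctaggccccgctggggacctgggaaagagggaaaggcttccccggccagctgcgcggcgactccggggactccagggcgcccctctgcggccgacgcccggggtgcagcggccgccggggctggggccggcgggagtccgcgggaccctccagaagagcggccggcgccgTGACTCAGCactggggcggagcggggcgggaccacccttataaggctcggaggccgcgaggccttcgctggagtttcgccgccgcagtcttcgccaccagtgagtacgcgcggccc
NQO1 (chr16:69726511-69726810, minus strand): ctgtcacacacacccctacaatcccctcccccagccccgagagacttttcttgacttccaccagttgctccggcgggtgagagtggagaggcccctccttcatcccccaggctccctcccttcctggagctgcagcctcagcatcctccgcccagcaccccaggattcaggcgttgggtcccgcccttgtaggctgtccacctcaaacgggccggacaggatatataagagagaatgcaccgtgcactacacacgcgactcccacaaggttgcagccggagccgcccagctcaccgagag

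RefSeq start windows were matched for 33 of the 40 genes, 47 windows in all because some genes have several starts. TGACNNNGC, searched on both strands, was found in 6 of the 47 windows (12.8%), against 13.3% of all 35116 windows of the same length. These windows belong to GCLM, GSTO1, GSTP1, MGST1 and TXNRD1, of which TXNRD1 has 2 such windows. GCLM, GSTO1 and GSTP1 rose, MGST1 fell and TXNRD1 did not pass the test. AGATAA was found in 4 of the 47 windows (8.51%), those of GCLC, GLRX2, GSTM3 and TXNRD2, against 10.3% of all windows. NQO1, with the largest rise of the 40 genes, has neither motif in its window of 300 bases, and sequence further upstream was not searched. The 3 transferase windows differ in make-up: GSTM3 has 41.3% G and C and 1 CG pair, whereas GSTM2 has 65.3% and 17 pairs and GSTM4 62.3% and 21 pairs. Aligned end to end, GSTM2 and GSTM4 were identical at 51.1% of alignment columns, and GSTM3 matched them at 44.02% and 44.8%. A match describes letters in a window of 300 bases and does not show that a factor binds there.

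Of the 40 genes, 38 had at least 1 TPM in 3 or more libraries and were tested on log2(TPM + 1). Changes are therefore given as log2 fold changes of MEN1 shRNA over control on that scale. On it the change of a weakly expressed gene comes out too small. None of the 38 was under 1 TPM in every library of a group. GSTM2, at 0.942 TPM in MEN1 shRNA replicate 2, met the filter only with the controls, where it was high. An adjusted p of 0.05 or less in limma was reached by 25 of the 38 genes, against 53.6% of all genes tested. Of these, 14 rose and 11 fell, where all genes tested gave 22.1% higher and 31.5% lower. Without the filter on low genes 7 fell in place of 11. Of the 25, 9 also changed by 2-fold or more (11.9% of all genes did): 4 rose, against 4.96% of all genes, and 5 fell, against 6.9%. The 3 libraries of one group lay wholly above those of the other in 26 of the 38 genes, against 61.8% of all genes. In 20 of the 25 called genes MEN1 shRNA replicate 1 was the knockdown library nearest the control mean, and without it 24 genes passed the test. The median log2 fold change was 0.05 over the 38 genes and -0.07 over all genes, and the median absolute change was 0.44 and 0.37. In bulk RNA, fewer cells of a type and less RNA per cell cannot be told apart.

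**Figure D1:**
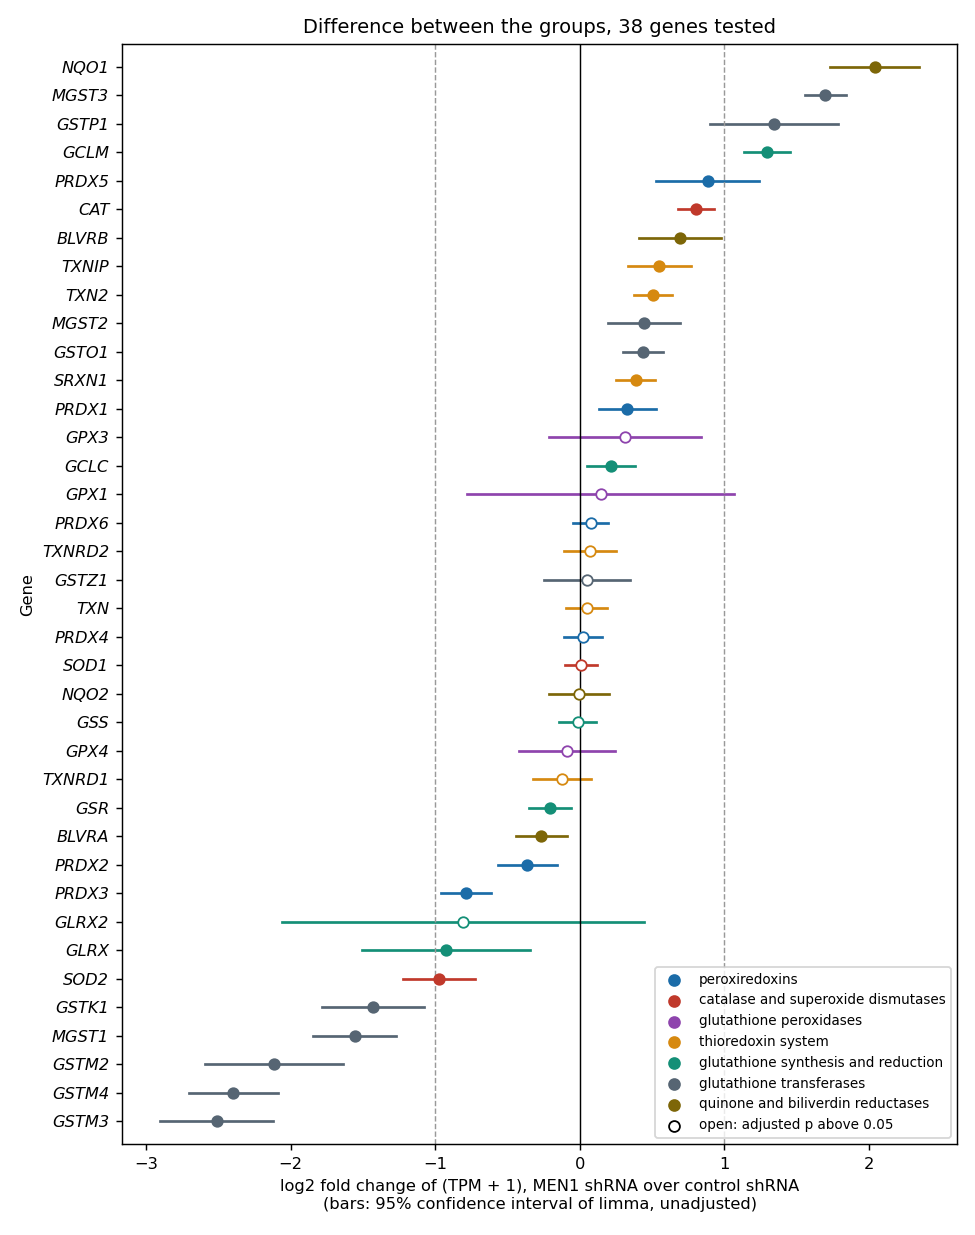
Log2 fold change of each of the 38 tested genes (horizontal axis, log2 scale of TPM + 1, MEN1 shRNA over control shRNA), with the 95% confidence interval of limma; filled points passed an adjusted p of 0.05, and dashed lines mark a 2-fold change. The values run from -2.51 for GSTM3 to 2.04 for NQO1, and 7 of the 9 genes past 2-fold are glutathione transferases.

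Together the 40 transcripts made up 1.01%, 1.02% and 0.977% of all TPM after MEN1 knockdown, against 0.916%, 0.881% and 0.903% in the controls. In the controls PRDX2 stood first at 2086 ± 109.6 TPM, followed by BLVRB at 1016 ± 77.1, GSTO1 at 819 ± 11.6, SOD1 at 802 ± 16.6 and CAT at 413 ± 9.71 (mean ± SD, n = 3). GSTO1 and SOD1 overlapped between libraries, and the other neighbours among these 5 did not. These 5 genes held 56.1% to 58.4% of the summed TPM in the controls and 56.0% to 60.5% after MEN1 knockdown. After MEN1 knockdown, BLVRB (1654 ± 264 TPM) and PRDX2 (1627 ± 177 TPM) overlapped. PRDX2 went from 23.2% ± 0.782 to 16.2% ± 1.61 of the sum, and BLVRB from 11.3% ± 0.636 to 16.5% ± 2.29.

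**Figure D2:**
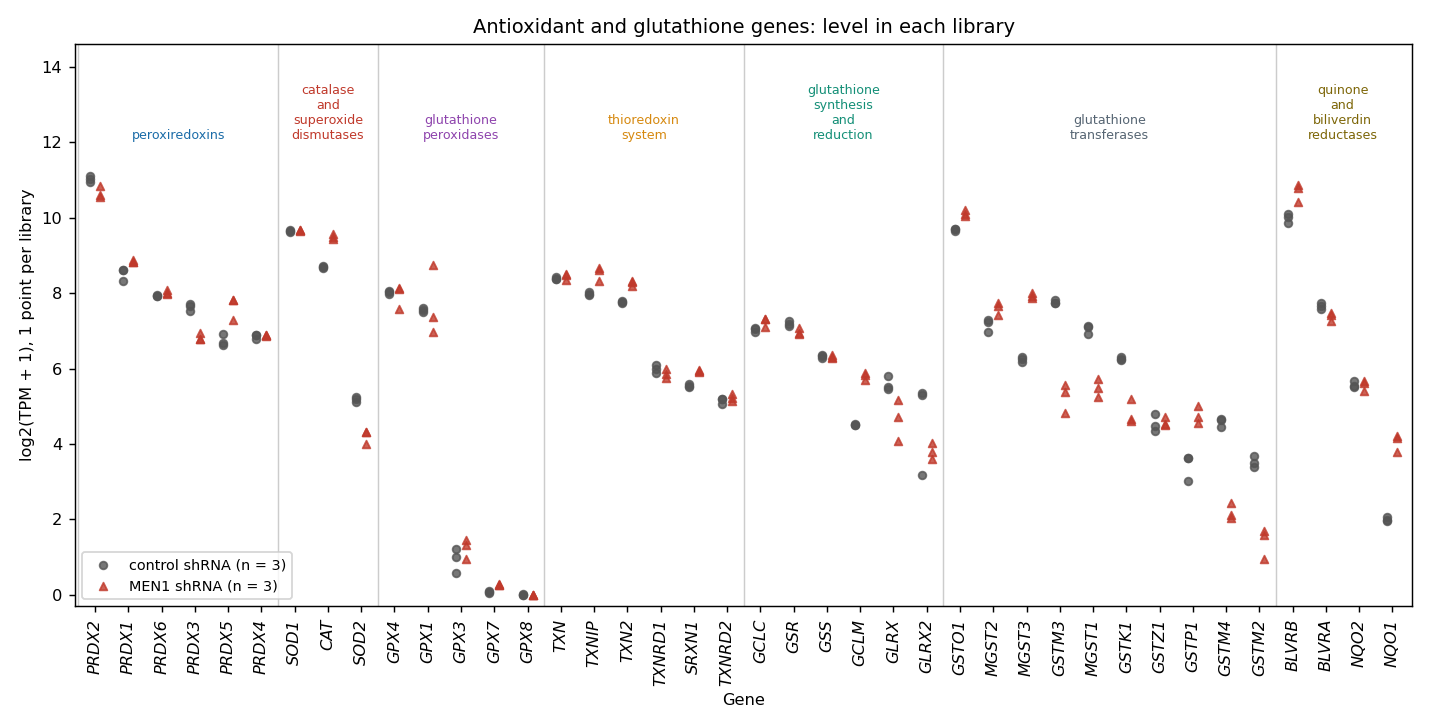
Level of each gene in each library (vertical axis, log2 of TPM + 1; circles, control shRNA; triangles, MEN1 shRNA; n = 3 each), grouped by role and ordered by level. PRDX2, BLVRB and GSTO1 lie highest, GPX7 and GPX8 near 0, and single libraries stand apart for GPX1 (MEN1 shRNA replicate 3) and GLRX2 (control replicate 3).

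The peroxiredoxins, which break down peroxides at a reactive cysteine, moved in both directions. Of the 6, 2 rose, 2 fell and 2 did not pass the test (66.7% called, against 53.6% of all genes). PRDX2, the cytosolic form that dominates in red cells (ENSG00000167815, chromosome 19, 12796820 to 12801800), was at 1829, 1559 and 1495 TPM after MEN1 knockdown, against 2202, 1985 and 2072 TPM in the controls. The groups did not overlap, and the gene fell by 0.36 on the log2 scale (SE 0.0868, adjusted p 0.00934). That call did not hold under quantile normalization (adjusted p 0.0989) or without the filter on low genes (0.0546). PRDX3, the mitochondrial peroxiredoxin, fell more, from 183, 202 and 207 TPM to 123, 109.9 and 109 TPM (log2 fold change -0.79, SE 0.0739, adjusted p 0.000121).

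PRDX5, which is found in mitochondria, peroxisomes and cytosol, showed the largest rise of the family. It was at 154, 223 and 224 TPM after MEN1 knockdown, against 102, 98.3 and 120.2 TPM in the controls (log2 fold change 0.88, SE 0.153, adjusted p 0.00196), and MEN1 shRNA replicate 1 was the lowest of its group. PRDX1, another cytosolic form, went from 318, 388 and 389.5 TPM to 453, 467 and 451 TPM (0.33, SE 0.0843, adjusted p 0.0125; 0.0517 without the filter on low genes). PRDX4, the form of the endoplasmic reticulum, lay at 115, 118 and 118 TPM after knockdown and 118, 109 and 118 TPM in the controls, and the interval of its difference ran from -0.11 to 0.16. PRDX6, which uses glutathione in place of thioredoxin, lay at 269, 253 and 250.2 TPM against 242, 243 and 247 TPM. Its groups did not overlap, but the difference of 0.08 did not pass the test (adjusted p 0.256) except under median-of-ratios scaling (0.16, adjusted p 0.0395; range over the alternatives 0.0395 to 0.473). The summed TPM of the 6 peroxiredoxins was 2773 ± 152 after MEN1 knockdown and 3115 ± 78.1 in the controls.

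Catalase rose and the mitochondrial superoxide dismutase fell. CAT (ENSG00000121691, chromosome 11, 34438934 to 34472060), whose enzyme splits hydrogen peroxide, was at 693, 751 and 719 TPM after MEN1 knockdown, against 422, 415 and 403 TPM in the controls. This is 1.75 times the control mean (log2 fold change 0.80, SE 0.0535, adjusted p 3.7e-05), and replicates within a group lay close together. SOD2, the manganese enzyme of the mitochondrial matrix, was at 14.9, 18.9 and 19.0 TPM against 37.1, 35.7 and 33.3 TPM, 49.8% of the control mean (-0.97, SE 0.106, adjusted p 0.000227). Its span overlaps ACAT2 and WTAP on the opposite strand, at a mean of 300.2 and 73.6 TPM, and although the library kit marks strand, whether the quantification used it is not given in the sources used here. SOD1, the copper-zinc enzyme of the cytosol, lay at 794, 815 and 813 TPM against 819, 799 and 786 TPM. The groups overlapped, and the interval of the SOD1 difference ran from -0.10 to 0.12.

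Of the 5 glutathione peroxidases 3 were tested, and 0 of them passed in limma, with 0 at an unadjusted p of 0.05 or less. Of all genes tested, 53.6% passed. GPX1, the cytosolic selenoenzyme (ENSG00000233276, chromosome 3, 49357174 to 49358605), was at 163, 125 and 429 TPM after MEN1 knockdown, against 194, 179 and 186 TPM in the controls. MEN1 shRNA replicate 3 lay above all controls and replicates 1 and 2 below all of them. Without replicate 3 the log2 fold change of GPX1 turned from 0.14 (SE 0.397) to -0.38 (SE 0.115, adjusted p 0.0322).

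GPX1P1, a processed copy of GPX1 on chromosome X, held 75.2, 101 and 94.98 TPM after MEN1 knockdown and 36.7, 28.9 and 29.9 TPM in the controls. Reads of such near-identical copies can be divided either way, and GPX1P1 held 13.8% to 44.6% of the summed TPM of the pair. The sum was 238, 225 and 524 TPM against 230.4, 208 and 216 TPM (log2 fold change 0.48, SE 0.291, adjusted p 0.205), a sum defined after the values were seen. GPX4, which reduces peroxides within membrane lipids, lay at 275, 189 and 278 TPM against 259, 265 and 251 TPM, with replicate 2 of the MEN1 shRNA alone below the controls (-0.09, adjusted p 0.642). GPX3, the secreted form, was at 0.938 to 1.73 TPM against 0.493 to 1.33 TPM. GPX7 and GPX8, forms of the endoplasmic reticulum, were not tested: GPX7 reached at most 0.212 TPM, and GPX8 was listed at 0 in all libraries but control replicate 2, at 0.0166 TPM.

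In the thioredoxin system 3 of the 6 genes rose and 0 fell in limma, and for the other 3 the unadjusted interval included 0. The 50% called lie near the 53.6% of all genes tested. TXN2, the mitochondrial thioredoxin, went from 213, 221 and 217 TPM to 292, 319.7 and 315 TPM (log2 fold change 0.51, SE 0.0557, adjusted p 0.000233). TXNIP, which binds thioredoxin and blocks it, was at 319, 407 and 388 TPM against 245, 249 and 262 TPM (0.55, SE 0.0931, adjusted p 0.00177). SRXN1, which restores over-oxidised peroxiredoxins, rose from 45.6 ± 1.43 to 59.9 ± 0.979 TPM (0.39, adjusted p 0.00097). In all 3 genes the knockdown libraries exceeded each control.

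TXN, the cytosolic thioredoxin, was at 365, 353 and 323 TPM after MEN1 knockdown, against 344, 332 and 330.5 TPM in the controls, and the groups overlapped. The thioredoxin reductases, selenoenzymes that recharge thioredoxin, had intervals of -0.33 to 0.08 for the cytosolic TXNRD1 and -0.11 to 0.25 for the mitochondrial TXNRD2. The span of TXNRD1 holds the ribosomal pseudogene RPL18AP3 on the same strand, at a mean of 248 TPM against 59.9 TPM for TXNRD1 itself.

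Among the enzymes of glutathione synthesis and reduction, 2 of 6 rose and 2 fell (66.7% called, against 53.6% of all genes). GCLM, the modifier subunit of glutamate-cysteine ligase (ENSG00000023909, chromosome 1, 93885199 to 93909456), was at 51.2, 57.5 and 56.1 TPM after MEN1 knockdown, against 21.6, 22.1 and 21.5 TPM in the controls. It rose 2.52 times (log2 fold change 1.30, SE 0.0690, adjusted p 2.39e-05). GCLC, the catalytic subunit, lay at 157, 158 and 137 TPM against 124, 133 and 131 TPM (0.21, SE 0.0710, adjusted p 0.0357). The GCLC call was lost on leaving out any library but MEN1 shRNA replicate 3 (adjusted p 0.0602 to 0.113), with the replicate block, under quantile normalization, without the mean-variance trend, without the filter on low genes, at an adjusted p of 0.01 and with gene-level coverage, where its adjusted p was 0.516. The ratio of GCLM to GCLC in TPM was 0.326, 0.364 and 0.409 after MEN1 knockdown and 0.174, 0.166 and 0.164 in the controls.

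GSS, which adds the last amino acid of glutathione, was at 77.2 to 80.7 TPM against 77.2 to 81.5 TPM, with an interval of -0.14 to 0.11. GSR, the glutathione reductase, was at 133, 122 and 120.5 TPM after MEN1 knockdown and 139, 151 and 143 TPM in the controls. Its fall of 0.21 on the log2 scale (SE 0.0628, adjusted p 0.0260) did not pass the test in 10 of 18 alternative fits. For GSR these included median-of-ratios scaling (adjusted p 0.139), TPM rescaled without globin and mitochondrial genes (0.102), and fits without replicate 2 or 3 of either group (0.0606 to 0.0880). GLRX, the cytosolic glutaredoxin, which removes glutathione from proteins, fell from 54.5, 44.4 and 42.8 TPM to 35.0, 25.4 and 15.9 TPM (-0.93, adjusted p 0.0158). Its adjusted p was 0.0547 without control replicate 1 and 0.0738 without the filter on low genes. GLRX overlaps RHOBTB3 on the opposite strand, which lay at 16.1, 12.7 and 12.7 TPM against 38.5, 41.5 and 36.6 TPM, so reads of the pair may not be separable.

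GLRX2, the mitochondrial glutaredoxin, had 1 control library apart from the others. It was at 11.1, 12.8 and 15.3 TPM after MEN1 knockdown, against 38.3, 40.1 and 8.04 TPM in the controls. The difference did not pass the test (-0.81, SE 0.536, adjusted p 0.242), and without control replicate 3 it did (-1.52, adjusted p 0.000431). In the deposited gene-level coverage, rescaled to the same total as TPM, GLRX2 lay at 13.3, 14.9 and 11.99 against 16.6, 17.9 and 13.4, with control replicate 3 again the lowest control. GLRX2 overlaps RO60 on the opposite strand, at a mean of 25.8 TPM.

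Glutathione transferases changed most: of 10 genes, 4 rose, 5 fell and only GSTZ1 did not pass the test (0.05, interval -0.25 to 0.35). Of the 10, 90% were called, and 7 were called at 2-fold or more. Among all genes tested 53.6% were called, 22.1% higher and 31.5% lower, and 11.9% were called at 2-fold or more. The mu-class genes fell furthest. GSTM3 (ENSG00000134202, chromosome 1, 109733932 to 109741038, minus strand) was at 40.7, 27.4 and 46.01 TPM after MEN1 knockdown, against 213, 214 and 223 TPM in the controls (log2 fold change -2.51, SE 0.169, adjusted p 3.72e-05). GSTM4 (ENSG00000168765, chromosome 1, 109656099 to 109665496) was at 4.43, 3.31 and 3.08 TPM against 21.0, 24.3 and 23.9 TPM (-2.39, SE 0.131, adjusted p 2.43e-05). GSTM2 (ENSG00000213366, chromosome 1, 109668022 to 109709551) was at 2.25, 0.942 and 1.98 TPM against 9.54, 10.3 and 11.7 TPM (-2.11, SE 0.204, adjusted p 0.000137). GSTM2 met the filter on low genes only with the controls. In each of these genes the highest MEN1 shRNA library lay far below the lowest control.

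These genes share a cluster of 5 mu-class genes that spans 119 kb on chromosome 1. GSTM1, at a lower level, was at 0.348, 0.0347 and 0.301 TPM after MEN1 knockdown and 1.35, 0.903 and 1.07 TPM in the controls, too low to be tested, and GSTM5 reached at most 0.0373 TPM. Mu-class genes are close paralogs, and GSTM1 lies within the span of GSTM2, so how reads were shared out between them is uncertain. The summed level of the 5 genes fell from 251 ± 7.44 to 43.6 ± 10.5 TPM, to 0.173 of the control mean. GSTM3 makes up most of this sum, and in gene-level coverage its log2 fold change was smaller, -1.65 in place of -2.51. Within the span of the cluster and 250 kb on either side of it 8 other genes were tested, of which 6 were lower, 0 higher and 2 (CYB561D1 and GNAI3) did not pass the test in limma, against 31.5% of all genes lower. The lower ones were PSMA5, ATXN7L2, AMPD2, EPS8L3, CSF1 and AHCYL1, with log2 fold changes from -0.36 for ATXN7L2 to -1.57 for AMPD2, and EPS8L3, which lies inside the span of GSTM5, passed the filter only through the controls. This neighbourhood was looked at after the values of the cluster were seen.

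**Figure D3:**
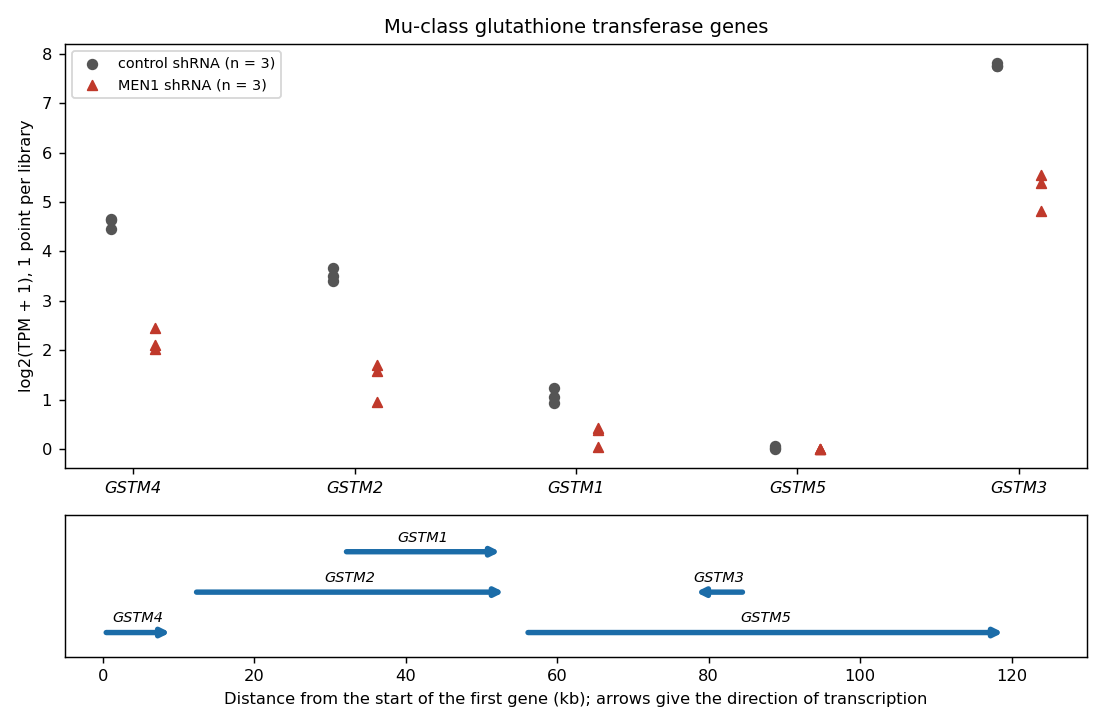
Upper panel: level of the 5 mu-class transferase genes in each library (vertical axis, log2 of TPM + 1; circles, control shRNA; triangles, MEN1 shRNA; n = 3 each). Lower panel: the genes to scale in kb from the start of GSTM4, with arrows for the direction of transcription; GSTM4, GSTM2 and GSTM3 lie lower in every MEN1 shRNA library, and GSTM5 is near 0 in both groups.

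The microsomal transferases, which are membrane proteins, split. MGST3 (ENSG00000143198, chromosome 1, 165631213 to 165661796) was at 234, 256 and 243 TPM after MEN1 knockdown, against 77.5, 71.5 and 74.9 TPM in the controls, a rise of 3.28 times (log2 fold change 1.70, SE 0.0603, adjusted p 8.84e-06). MGST1 (ENSG00000008394, chromosome 12, 16347142 to 16609259) went the other way, at 52.3, 43.6 and 36.9 TPM against 135, 138 and 120.2 TPM (-1.56, SE 0.124, adjusted p 6.7e-05). MGST2, which can also make leukotriene C4, was at 171, 202 and 211 TPM against 154, 125 and 150.2 TPM (0.44, adjusted p 0.00969; 0.0533 with gene-level coverage). In the controls MGST1 was the higher of MGST1 and MGST3 in every library, and after MEN1 knockdown MGST3 was.

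Soluble transferases of other classes also differed in direction. GSTP1, the pi-class enzyme (ENSG00000084207, chromosome 11, 67583742 to 67586656), was at 22.5, 31.2 and 25.4 TPM against 11.3, 7.10 and 11.3 TPM (1.34, SE 0.190, adjusted p 0.000758). GSTO1, the omega-class enzyme and the most abundant transferase here, rose from 823, 806 and 829 TPM to 1060.4, 1185 and 1089 TPM (0.44, SE 0.0589, adjusted p 0.000595). GSTK1, the kappa-class enzyme of mitochondria and peroxisomes, fell from 73.6, 77.9 and 74.5 TPM to 35.8, 24.3 and 23.2 TPM (-1.43, SE 0.151, adjusted p 0.000199). GSTO1 made up 53.7% ± 0.300 of transferase TPM in the controls and 64.8% ± 1.07 after MEN1 knockdown, while GSTM3 went from 14.2% ± 0.300 to 2.23% ± 0.625. The sum of the 10 transferases was 1526 ± 28.8 TPM in the controls and 1715 ± 74.7 TPM after MEN1 knockdown.

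NQO1 and BLVRB rose among the quinone and biliverdin reductases, BLVRA fell and NQO2 did not pass the test. NQO1, a quinone reductase and a standard readout of NRF2 activity (ENSG00000181019, chromosome 16, 69706996 to 69726668), was at 12.7, 17.5 and 16.7 TPM after MEN1 knockdown, against 3.15, 2.91 and 2.99 TPM in the controls. Its rise of 5.19 times was the largest among the 38 genes tested (log2 fold change 2.04, SE 0.133, adjusted p 3.51e-05). NQO2, a related quinone reductase, lay at 41.5 to 50.0 TPM against 44.7 to 50.1 TPM, with an interval of -0.21 to 0.20.

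BLVRB, an abundant red cell enzyme that reduces biliverdin and flavins (ENSG00000090013, chromosome 19, 40447765 to 40465764), was at 1750.2, 1857 and 1355 TPM against 1084, 932 and 1030.3 TPM (log2 fold change 0.69, SE 0.121, adjusted p 0.00213). MEN1 shRNA replicate 3 was the lowest of its group and still above every control. BLVRA, which turns the biliverdin of heme breakdown into bilirubin, lay at 177, 171 and 152 TPM against 188, 201 and 211 TPM (-0.26, SE 0.0751, adjusted p 0.0196). The BLVRA call was lost in 8 of 18 alternative fits. These included median-of-ratios scaling (adjusted p 0.0912), TPM rescaled without globin and mitochondrial genes (0.0652), the replicate block (0.0515), and leaving out MEN1 shRNA replicate 3 or control replicate 2 or 3 (0.0554 to 0.0667).

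Erythroid markers differed between the groups. Of 12 markers, 9 were higher, 0 lower and 3 did not pass the test in limma. Of all genes tested, 22.1% were higher and 31.5% lower. The summed TPM of the 12 markers was 98285 to 110455 after MEN1 knockdown and 56657 to 62790 in the controls. SLC4A1, the anion exchanger of red cells, had a log2 fold change of 1.93, and KLF1, GATA1 and EPOR had values of -0.05, 0.06 and 0.02. The part of this difference in the values of PRDX2, CAT, BLVRB and the others was not tested. The 7 megakaryocyte markers summed to 16.7 to 21.5 TPM against 31.8 to 36.7 TPM, nearly all of it ITGA2B. The 6 mast cell and basophil markers summed to 725 to 885 TPM against 1037 to 1307 TPM, and the part of these in the results was not tested. The 8 myeloid markers summed to 0.741 to 1.23 TPM against 3.45 to 5.25 TPM, and the 6 lymphoid markers to 3.97 to 5.83 TPM against 1.11 to 1.28 TPM. Most of the lymphoid sum after MEN1 knockdown was CD3D, at 4.75, 3.03 and 5.43 TPM against 0.342, 0.777 and 0.0709 TPM. CD3D passed the filter only through the knockdown libraries.

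Other genes of the same pathways were compared by 7 lists chosen by function. Of 103 listed genes tested, 63 passed the test, 27 higher and 36 lower, with a median log2 fold change of -0.09, against 53.6% of all genes called and a median of -0.07. Of the 103, OSGIN1 and LTC4S were under 1 TPM in every library of 1 group. GSTA4, at 0.692 TPM in MEN1 shRNA replicate 2, met the filter only with the controls. SELENOM, at 0.213 and 0.205 TPM in control replicates 1 and 2, met it only with the knockdown libraries. Of 13 regulators of the NRF2 pathway tested, 4 rose and 1 fell (38.5% called, against 53.6% of all genes). NFE2L2 itself was at 87.9 ± 19.3 TPM after MEN1 knockdown and 65.7 ± 18.4 TPM in the controls and did not pass the test (0.43, adjusted p 0.149), although it did with the replicate block (adjusted p 0.00842). The small MAF genes MAFG (0.96, adjusted p 0.000336) and MAFF (1.28, adjusted p 0.000756) rose, and so did BACH1, the repressor (0.62, adjusted p 0.000399). KEAP1, which marks NRF2 for degradation, had a log2 fold change of -0.11 (adjusted p 0.505), and FOXO3, a regulator of antioxidant genes in erythroid cells, one of -0.09 (adjusted p 0.254).

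Of 20 further NRF2 target genes, 7 rose and 6 fell, and the 65% called stand beside 53.6% of all genes, of which 22.1% were higher and 31.5% lower. SLC7A11, the cystine importer that feeds glutathione synthesis, rose from 3.67 ± 0.279 to 16.0 ± 2.75 TPM (1.85, adjusted p 5.43e-05), and IDH1, a cytosolic source of NADPH, from 76.7 ± 3.12 to 144 ± 13.3 TPM (0.89). PGD, an NADPH-producing enzyme of the pentose phosphate pathway, fell from 376 ± 14.7 to 131 ± 19.9 TPM (-1.52, adjusted p 3.75e-05). HMOX1, the inducible heme oxygenase and a classic NRF2 and BACH1 target, was at 8.54 ± 2.95 and 8.09 ± 1.94 TPM and did not pass the test (0.05, adjusted p 0.881); it was named after its value was seen.

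Among other members of the families, 13 of 25 found were tested, and 2 rose and 8 fell (76.9% called, against 53.6% of all genes). Among those that fell, LTC4S and GSTA4 passed the filter only with the controls. HPGDS, a sigma-class transferase that makes prostaglandin D2, rose from 10.7 ± 2.57 to 38.2 ± 3.04 TPM (1.76), while GSTA4, an alpha-class transferase, fell from 5.46 ± 0.0828 to 1.07 ± 0.366 TPM (-1.66) and GLRX3, a glutaredoxin that handles iron-sulfur clusters, from 94.6 ± 13.7 to 43.98 ± 2.41 TPM (-1.08). Of 20 thioredoxin-fold genes and methionine sulfoxide reductases tested, 4 rose and 7 fell (55% called, near the share of all genes). Those with the lowest adjusted p were TXNDC12 (-1.45), TMX4 (-1.04) and SESN2 (1.74), a stress-induced sestrin.

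Among 18 genes of glutathione turnover and precursor supply, 5 rose and 7 fell (66.7% called, against 53.6% of all genes). Those with the lowest adjusted p, though not the largest changes, were GLO1 (-0.46), SLC3A2 (0.66), the partner chain of SLC7A11, and SLC25A39 (0.61), which carries glutathione into mitochondria. Of 8 genes that make selenoproteins, 2 rose and 4 fell (75% called). SEPHS2, which makes the selenium donor, was at 49.3, 49.1 and 49.0 TPM after MEN1 knockdown, against 104, 106 and 101 TPM in the controls (-1.06, adjusted p 2.15e-05), and SCLY (-1.14) and EEFSEC (-0.64) were lower too. Of 11 other selenoprotein genes tested, 3 rose and 3 fell (54.5% called, near the share of all genes). Those with the lowest adjusted p were SELENOH (-0.88), SELENON (-1.65) and SELENOW (0.31). The selenoprotein members GPX1, GPX3, GPX4, TXNRD1 and TXNRD2 did not pass the test, as given above.

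The deposited tables hold a further measure, the mean read coverage of each gene. Fitted in place of TPM, an alternative chosen after the data were seen, it called 23 of the 38 genes, where TPM called 25. Its count over all genes tested stayed within 1.5 times the 7657 called with TPM. That bound is too wide to set the 23 against a share of all genes. For 33 of the 38 the log2 fold change lay within 0.15 of the TPM value. The 5 that moved further were GSTM2 (-0.97 in place of -2.11), GSTM3 (-1.65 in place of -2.51), GLRX2 (-0.24 in place of -0.81), GLRX (-0.64 in place of -0.93) and MGST1 (-1.36 in place of -1.56). GSTM2 had a rescaled coverage of only 0.123 to 1.58, so the pseudocount of 1 weighs heavily there. GLRX, at 1.10 to 3.36, and MGST1, at 2.75 to 10.6, were also low enough for the pseudocount to shrink their changes. Before the pseudocount, mean rescaled coverage after MEN1 knockdown and in the controls was 1.57 and 2.97 for GLRX and 3.29 and 9.95 for MGST1. GSTM3 was at 67.7, 46.8 and 42.7 against 168, 157 and 167 in rescaled coverage, a smaller difference than in TPM and again with no overlap.

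**Figure D4:**
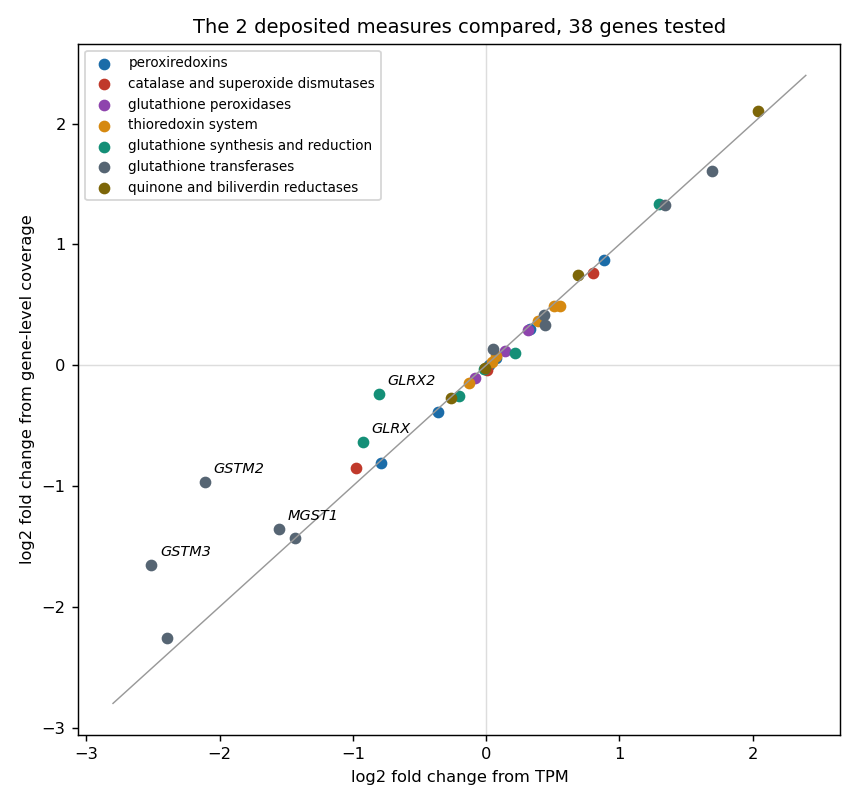
Log2 fold change of each tested gene from TPM (horizontal axis) and from gene-level coverage rescaled to the same total (vertical axis); the line marks equal values, and genes that differ by more than 0.15 are named. GSTM2, GSTM3 and GLRX2 lie furthest above the line, with smaller log2 falls in coverage than in TPM. For GSTM2 the coverage is so low that the pseudocount of 1 weighs heavily.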

How the data were processed

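RNA was measured in 3 MEN1 shRNA and 3 control shRNA libraries. Per the submitters' processing notes, the tools were FastQC, Trimmomatic, STAR 2.7.1a, Picard 2.20.4 and StringTie 2.0.4 with build hg38. The sources used here give neither their settings nor the annotation. GENCODE v29 (GRCh38) holds 39 of the 40 identifiers at an overlapping position. The deposited TPM sums to 1000000 per library, the deposited FPKM entered 1 alternative, and the deposited coverage signal is the mean read coverage per base, per the file headers. In control replicate 2 the deposited columns held 3 residues just below 0, set to 0. Depth was taken from the ratio of coverage to FPKM, which was equal within 0.1% in 99.5% to 99.7% of single-transcript genes.

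Genes with at least 1 TPM in 3 libraries were fitted on log2(TPM + 1) with limma 3.58.1 in R 4.3.3 (eBayes with trend, no block, 2-sided, Benjamini-Hochberg over 14294 genes). The step was run on simulated independent normal values in which few genes changed, unlike these data, so that run checks the code only. The labels do not say that cultures were separate, so p-values may measure technical spread. The genes, lists and tests were chosen with earlier results of these data known. All 40 genes are named, per library where they passed 2-fold or averaged 100 TPM; each list gives the 3 lowest adjusted p-values, and NFE2L2, KEAP1, BACH1 and FOXO3 regardless. Figures were made with matplotlib 3.10.9.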

Additional observations from a re-analysis of the deposited data

How the results depend on the processing

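Counts of called genes were recomputed under 18 alternatives, and 107 of 108 such counts stayed within 1.5 times the reported one. The exception was the number of members that fell, 11 as reported and 7 without the filter on low genes; the cause was not tested. Leaving out 1 library at a time gave 22 to 24 members past the threshold, 13 to 14 higher, 9 to 11 lower and 9 to 11 at least 2-fold, 51 to 63 listed pathway genes and 6577 to 7542 genes in all. GPX1 reversed to -0.38 without MEN1 shRNA replicate 3, and leaving out 1 library at a time gave it values from -0.38 to 0.50. Of the 38 members tested, 28 kept their side of the threshold under every alternative; the other 10 were PRDX1, PRDX2, PRDX6, GPX1, GCLC, GSR, GLRX, GLRX2, MGST2 and BLVRA. Signs changed under some alternatives for GPX4, GSS, GSTZ1, NQO2, PRDX4 and SOD1, which passed the test under none of them. Deviations from the group means correlated at 0.0171, -0.0265 and -0.0124 between libraries with the same replicate number. The numbers were therefore not taken to pair them. With the replicate block 22 members passed, 13 higher and 9 lower. The count over all genes with the block stayed within 1.5 times the 7657 reported. That bound is too wide to set the 22 members against a share of all genes. Coverage of 0.0363 or less per base at GSTM5 and 0.0747 or less at GPX8 leaves their level unresolved.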
